A study of Mus musculus with 19 samples.

Results

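The genes Foxj1, Dnah5, Dnah11, Dynlrb2, Rsph1, Cfap126, Ccdc153 and Tmem212 mark the motile cilia of ependymal cells, and their transcript levels were followed in the hippocampus of 8-month-old mice. The 8 genes were chosen by name, with earlier results of these data known. A probe was taken as theirs where its accession was a RefSeq transcript of the gene. All 8 were on the array and all 8 passed the filter on dim probes, as 8 of 25599 genes tested. That filter asked for a probe well above background, by the scanner software's flag, on at least 6 of the 19 arrays. Dnah11 was so on 12 arrays, Ccdc153, Tmem212 and Dnah5 on 18, and the other members on all 19. Each had 1 probe, except Cfap126, which had 2.

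APP/PS1 mice given urolithin A (UA, n = 6) were set against APP/PS1 mice given vehicle (n = 7), and both against wild-type (WT) littermates given vehicle (n = 6). UA is a compound that gut bacteria make from dietary ellagitannins. Its dose was 200 mg per kg body weight per day in DMSO, by gavage between 6 and 8 months of age, and the vehicle was DMSO. APP/PS1 mice of this strain carry transgenes for a chimeric mouse/human APP and a human presenilin 1 with familial Alzheimer's disease mutations, driven by a prion protein promoter, and both APP/PS1 groups share them. The comparisons ask whether the amyloid model differs from its littermates and whether UA changes that. The design counts as many mice as there are arrays in each group, and each array was taken as 1 mouse, named UA1 to UA6, VEH1 to VEH7 and WT1 to WT6.

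Ependymal cells line the brain's ventricles and carry tufts of motile cilia that move cerebrospinal fluid. The cilium is built on an axoneme of microtubules, which dynein arms bend and which radial spokes, a central pair and nexin links regulate. The hippocampus borders the lateral ventricle, where the ependyma lies next to the choroid plexus, an epithelium that secretes cerebrospinal fluid and makes transthyretin (Ttr). Choroid plexus epithelium has ciliary tufts of its own, so cilia genes do not separate the 2 tissues.

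Levels are log2 of the processed array signal minus the same array's 75th percentile, so 0 is the level of that percentile. That percentile lay between 663 and 1776 intensity units, and the share of probes well above background between 51.4% and 59.4%. Hippocampal neuron markers were present, 13 of 14 being well above background on all 19 arrays and Iyd on none. VEH3 stood apart, with the lowest share of probes above background, the lowest Ttr level and the lowest level of 7 of the 8 members. The members' differences from vehicle arrays, their slopes on Ttr and some correlations are also given without it. The Ttr means, the correlations within vehicle arrays and between members, the likeness ranking, the slopes of other lists and the fits with Ttr as a covariate include it. The arrays lay on 3 slides: slide 1 held 2 vehicle and 6 WT arrays, slide 2 held 3 UA and 5 vehicle arrays, and slide 3 held 3 UA arrays.

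Promoters are shown for Dynlrb2 and Ccdc153, which held a match to the searched motifs, and for Dnah5, the member that followed Ttr least. The 250 bases before the start site come from RefSeq (GRCm38.p6), in which 6 of the 8 members were matched, and those of Foxj1 and Rsph1 were not used here. Capitals mark matches to the X-box, the site of the RFX factors that regulate cilia genes. It was searched on both strands as GTTNCC, 0 to 3 bases and NGNAAC, and as the shorter motif GTTGCC, which overlaps it. The segments are chr8:116504765-116505014 (plus strand), chr9:44240427-44240676 (plus strand) and chr15:28203516-28203765 (plus strand).
Dynlrb2: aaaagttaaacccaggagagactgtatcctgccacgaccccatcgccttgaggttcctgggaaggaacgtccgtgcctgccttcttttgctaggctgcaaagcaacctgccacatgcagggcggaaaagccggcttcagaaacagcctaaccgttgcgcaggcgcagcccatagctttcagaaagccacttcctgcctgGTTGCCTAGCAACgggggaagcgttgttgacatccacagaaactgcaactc
Ccdc153: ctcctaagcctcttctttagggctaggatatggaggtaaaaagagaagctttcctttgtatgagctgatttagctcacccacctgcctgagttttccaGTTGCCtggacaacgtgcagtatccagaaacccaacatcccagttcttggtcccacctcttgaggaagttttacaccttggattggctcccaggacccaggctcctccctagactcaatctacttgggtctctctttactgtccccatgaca
Dnah5: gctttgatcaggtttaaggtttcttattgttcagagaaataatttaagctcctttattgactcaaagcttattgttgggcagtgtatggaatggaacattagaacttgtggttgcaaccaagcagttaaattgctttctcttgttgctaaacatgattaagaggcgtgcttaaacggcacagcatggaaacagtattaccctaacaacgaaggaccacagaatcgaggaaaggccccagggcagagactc
The full X-box was in the window of 1 of the 6 members, Dynlrb2, 39 to 51 bases before the start, and in that of 1.82% of 27025 genes. GTTGCC was in those of 2 members, Dynlrb2 and Ccdc153, in the second at 147 to 152 bases before the start, and in 11.8% of all genes. The forkhead motif TGTTTAC, the kind of site that FOXJ1 binds, was in none of the 8 windows of these 6 members, which count 3 start sites of Cfap126, and in 3.54% of all genes. These are matches of letters in a window and not tests of binding.

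Foxj1, the transcription factor gene that switches on the motile cilia programme, had levels from -2.19 to -0.42 (median -0.89) in UA arrays, from -3.74 to 0.058 (median -0.73) in vehicle arrays and from -2.19 to 0.0078 (median -1.49) in WT arrays. Its means were -1.15 ± 0.75 (SD, n = 6), -1.15 ± 1.39 (n = 7) and -1.43 ± 0.77 (n = 6) in the same groups. The 3 groups overlapped across most of their range. VEH3 was lowest and VEH7 highest of all 19, and among WT arrays WT3 lay apart from the other 5, whose highest level was -1.44.

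Among the dynein genes, Dnah5, an outer arm heavy chain, had levels from -3.44 to -3.13 (median -3.21) in UA arrays, from -4.70 to -2.79 (median -3.13) in vehicle arrays and from -4.37 to -1.80 (median -2.90) in WT arrays. UA arrays spread least, with an SD of 0.11, against 0.66 in vehicle and 0.85 in WT arrays. The extremes were VEH3, not well above background, and WT5, the array with the most non-uniform spots (172).

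Dnah11, a second outer arm heavy chain, ran from -6.78 to -3.13 (median -4.27) in UA arrays, from -6.45 to -2.72 (median -4.37) in vehicle arrays and from -6.54 to -3.11 (median -5.50) in WT arrays. It was well above background on 4 of 6 UA, 6 of 7 vehicle and 2 of 6 WT arrays, so its low values lie near background. Dynlrb2, a dynein light chain of the roadblock family, ran from -0.77 to 1.23 (median 0.74) in UA arrays, from -3.50 to 1.60 (median 0.79) in vehicle arrays and from -1.49 to 1.52 (median -0.35) in WT arrays. For both genes VEH7 was highest and each group held high and low arrays.

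Rsph1, a radial spoke head gene, ran from -1.89 to -0.57 (median -0.97) in UA arrays, from -2.88 to -0.23 (median -1.12) in vehicle arrays and from -2.45 to -0.60 (median -1.86) in WT arrays. Cfap126 encodes Flattop, a protein of basal body positioning. It ran from -0.40 to 1.79 (median 1.24) in UA arrays, from -1.45 to 2.10 (median 0.99) in vehicle arrays and from -0.78 to 1.86 (median -0.0045) in WT arrays. Its second probe moved with the first, with a correlation of 0.99 over 19 arrays after group means were removed.

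Ccdc153, a coiled-coil gene used as an ependymal marker, ran from -0.50 to 1.11 (median -0.058) in UA arrays, from -4.41 to 1.70 (median 0.56) in vehicle arrays and from -1.14 to 1.19 (median 0.073) in WT arrays. Tmem212, a membrane protein gene also used as one, ran from -1.43 to 0.53 (median -0.46) in UA arrays, from -6.49 to 1.01 (median 0.028) in vehicle arrays and from -3.24 to 0.68 (median -0.56) in WT arrays. VEH3 lay far below every other array for both genes and was not well above background for either. Without it, the lowest vehicle array was at -0.50 for Ccdc153 and -1.29 for Tmem212, inside the range of WT arrays.

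**Figure D1:**
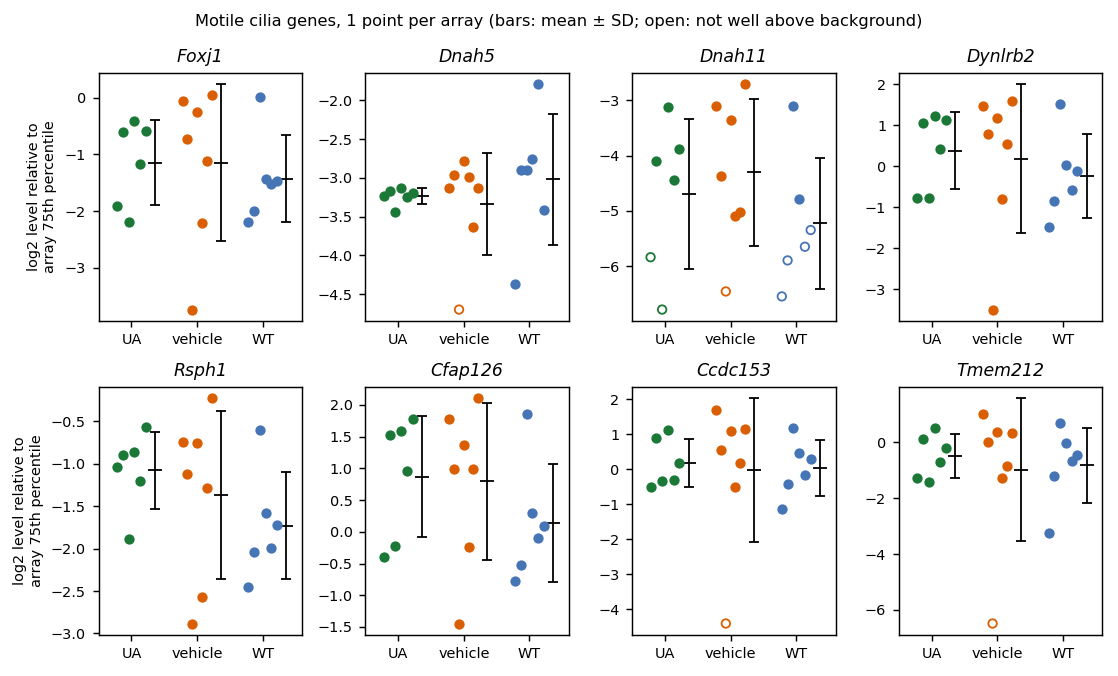
Log2 level relative to the array's 75th percentile (y axis) of each member in UA-treated APP/PS1, vehicle-treated APP/PS1 and WT hippocampus (x axis), 1 point per array, with the mean and SD as a bar and open points where the probe was not well above background. The groups overlap for every member, and VEH3 is the lowest vehicle point of every panel, at -6.49 for Tmem212.

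None of the 8 members passed the test between UA and vehicle arrays of APP/PS1 mice, where 0% of all genes did (limma, Benjamini-Hochberg over 25599 genes, adjusted p under 0.05). At an unadjusted p under 0.05 no member and 3952 genes did. The members' log2 differences ran from -0.40 for Dnah11 to 0.48 for Tmem212, with a median of 0.15, against -0.0051 over all genes, and adjusted p from 0.736 to 0.998. For Foxj1 the difference was 0.0030 (SE 0.54), with a 95% interval of -1.14 to 1.14, and differences inside it could not be told apart from 0. Without VEH3 the median was -0.42, 1 member lay above 0 in place of 7, and again none passed (lowest adjusted p 0.511). Within slide 2, which held 3 UA and 5 vehicle arrays, the median was 0.10 and none passed.

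Vehicle APP/PS1 and WT arrays did not differ past the threshold for any member either, where 5.05% of all genes did. The differences ran from -0.31 for Dnah5 to 0.92 for Dnah11 (SE 0.68), with a median of 0.32, against 0.0086 over all genes. For Dnah11, 6 of 7 vehicle arrays but 2 of 6 WT arrays had a signal well above background, so its difference rests in part on signal near background. The lowest adjusted p was 0.411 and no member had an unadjusted p under 0.05, where 6079 of all genes did. Without VEH3 the median was 0.74 and 7 members lay above 0 (lowest adjusted p 0.179). Within slide 1, which held 2 vehicle and 6 WT arrays, the median was 1.17 (lowest adjusted p 0.287), and with slide as a block it was also 1.17.

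UA APP/PS1 and WT arrays gave no call among the members, against 0.0898% of all genes. The differences ran from -0.21 for Dnah5 to 0.73 for Cfap126 (SE 0.58), with a median of 0.42, against -0.012 over all genes, and the lowest adjusted p was 0.668, that of Rsph1 (difference 0.66, SE 0.40). No member had an unadjusted p under 0.05, where 2215 of all genes did. No slide held both groups. In a fit with slide as a block the median was 1.03 and no member passed. All 3 comparisons share groups, so their values are not independent, and in whole tissue fewer cells of a type and less RNA per cell cannot be told apart.

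The other motile cilia genes gave 1 call in the 3 comparisons. Dnal1, a light chain of the outer arm, was lower in vehicle APP/PS1 than in WT arrays by a log2 difference of -0.39 (SE 0.095, limma adjusted p = 0.0276), as 1 of 15 dynein arm genes and of 85 genes over 5 lists of motile cilia genes. The share of 1 in 85 lies below the 5.05% of all genes called between vehicle and WT arrays, and that of 1 in 15 lies near it. Of 35 other axoneme genes none passed between vehicle and WT, with 33 above 0 and a median of 0.35. Of 14 other ependymal markers 1 passed, S100b (0.31, SE 0.081, adjusted p = 0.0383), a calcium-binding protein gene that astrocytes also express, which is near the 5.05% of all genes. Choroid plexus genes were called in none of the comparisons, although their median difference was 1.74 between vehicle and WT arrays and 1.57 between UA and WT arrays.

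The levels of 7 of the 8 members followed Ttr. Ttr itself ran from -0.35 to 8.92 (median 8.54) in UA arrays, from -2.98 to 9.40 (median 8.41) in vehicle arrays and from 1.84 to 9.14 (median 2.94) in WT arrays, a 5344-fold range over the 19 arrays. Its mean differed by -0.15 between UA and vehicle (exact permutation p = 0.931), by 2.44 between vehicle and WT (exact permutation p = 0.296) and by 2.29 between UA and WT (exact permutation p = 0.232). Ttr was at 8.33 or above in 4 UA arrays, 5 vehicle arrays and 1 WT array, WT3, and at 4.24 or below in the other 9 arrays. These levels come from the Ttr probe of highest mean. A second Ttr probe ran from 2.55 to 4.66 in the first set of arrays and from -6.88 to -0.58 in the other. That probe had a 2983-fold range and was not well above background on UA1 and VEH3. The 2 probes had a correlation of 0.99 over the 19 arrays. Slopes on the second probe alone were not fitted.

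Of the 8 members, 7 had a positive slope on the array's Ttr level past the threshold (limma with group means and 1 common slope, Benjamini-Hochberg over 25598 genes). Of all genes 8.9% were called with a positive slope, 12.2% with a negative one and 21.1% in all. The slope is the log2 change of a gene per log2 unit of Ttr, beyond the group means. It was 0.25 for Foxj1 (SE 0.025, adjusted p = 5.21e-06). Of the dynein genes, it was 0.32 for Dynlrb2 (SE 0.030, adjusted p = 2.32e-06) and 0.28 for Dnah11 (SE 0.042, adjusted p = 0.000295). It was 0.15 for Rsph1 (SE 0.028, adjusted p = 0.00147) and 0.26 for Cfap126 (SE 0.022, adjusted p = 7.06e-07). Ccdc153 had 0.29 (SE 0.049, adjusted p = 0.000739) and Tmem212 had 0.37 (SE 0.064, adjusted p = 0.00109). Every array with Ttr at 8.33 or above had Dnah11 well above background. The arrays where Dnah11 was not, UA1, UA3, VEH3, WT1, WT2, WT5 and WT6, all had Ttr at 4.24 or below. Dnah11 thus passed the filter on dim probes mainly through arrays of high Ttr. Its slope sets them largely against signal near background.

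Dnah5 did not pass, with a slope of 0.072 (SE 0.034, 95% interval -0.00055 to 0.14, adjusted p = 0.141). Its promoter, printed above, held neither form of the X-box, and neither did those of Tmem212, Dnah11 and Cfap126, which passed. Without VEH3 the same 7 members passed, with slopes from 0.15 to 0.32, and Dnah5 had 0.020. The slopes of Tmem212 and Ccdc153 changed by over 1.5 times without it, to 0.22 and 0.17. That of Dnah11, whose probe was well above background on 12 of 19 arrays, changed more with the processing: with normexp background it was 0.054 (SE 0.015, adjusted p = 0.0155), and that of Dnah5 was 0.0092. Leaving out 1 or 2 arrays gave Dnah11 slopes from 0.26 to 0.39.

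**Figure D2:**
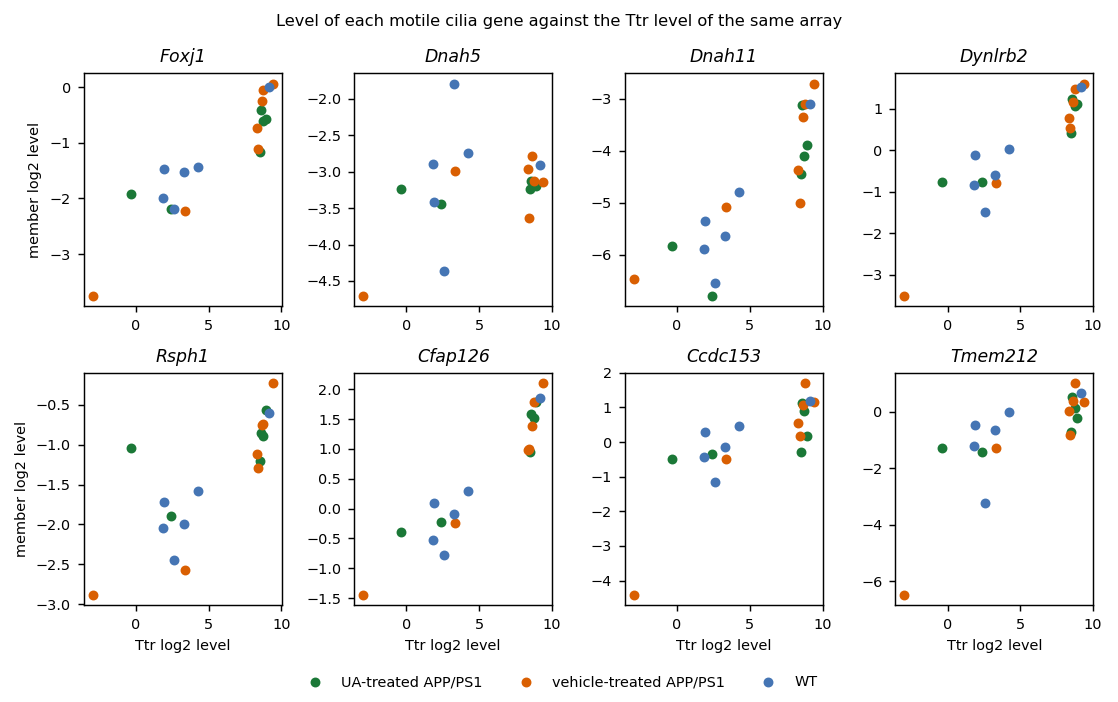
Log2 level of each member (y axis) against the Ttr log2 level of the same array (x axis), coloured by group, 1 point per array. For 7 members levels are higher where Ttr is higher, in Dnah5 less so, and a gap without arrays separates Ttr levels up to 4.24 from those of 8.33 and above.

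As correlations over all 19 arrays, the 7 members had Pearson r from 0.77 to 0.95 and Spearman rho from 0.80 to 0.95, with permutation p of at most 9e-05, and Dnah5 had r = 0.36 (permutation p = 0.135) and rho = 0.29 (permutation p = 0.233). Without the 2 arrays farthest from the median Ttr level, VEH3 and UA1, r was 0.69 to 0.94 for the 7 and 0.037 for Dnah5. These pooled values span the gap in Ttr, which took 33.0% of its range, so r was also computed on each side of it, a choice made after the values were seen.

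In the 10 arrays above the gap, Rsph1 (r = 0.92, permutation p = 0.00012), Cfap126 (0.90, permutation p = 0.00018), Dynlrb2 (0.79), Foxj1 (0.75) and Dnah11 (0.72) had a permutation p under 0.05. Ccdc153 (0.43), Tmem212 (0.44) and Dnah5 (0.24) did not. In the 9 arrays below it, 5 members did by the exact permutation test, with r from 0.78 to 0.83: Ccdc153, Dynlrb2, Cfap126, Foxj1 and Tmem212. That relation rested on VEH3: in the other 8 arrays none had an exact permutation p under 0.05, and r ran from -0.56 for Rsph1 to 0.44 for Cfap126. In limma fits of the slope on all genes within either side, no member passed (lowest adjusted p 0.071 above and 0.541 below the gap). Of all 25598 genes, 29 (0.113%) passed above the gap and 0 (0%) below it, where 2306 and 2171 had an unadjusted p under 0.05. In each set of arrays 8 relations were computed.

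Within groups, the 7 members had r from 0.54 to 0.95 in UA arrays, from 0.85 to 0.99 in vehicle arrays and from 0.61 to 0.93 in WT arrays. Spearman rho was 0.71 to 0.94, 0.86 to 1 and 0.71 in the same groups, the last with an exact permutation p of 0.136 for each of the 7. WT3 is the single WT array above the gap in Ttr, and VEH3 the lowest vehicle array. The slope did not pass a test of difference between the groups for any member (lowest adjusted p 0.614, Ccdc153, and 0.00391% of all genes called). In that test 4 members had an unadjusted p under 0.05, as did 1862 of 25598 genes. For Ccdc153 the slopes were 0.11 (SE 0.061) in UA arrays, 0.44 (SE 0.049) in vehicle arrays and 0.22 (SE 0.089) in WT arrays. Without VEH3 again no member passed this test.

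**Figure D3:**
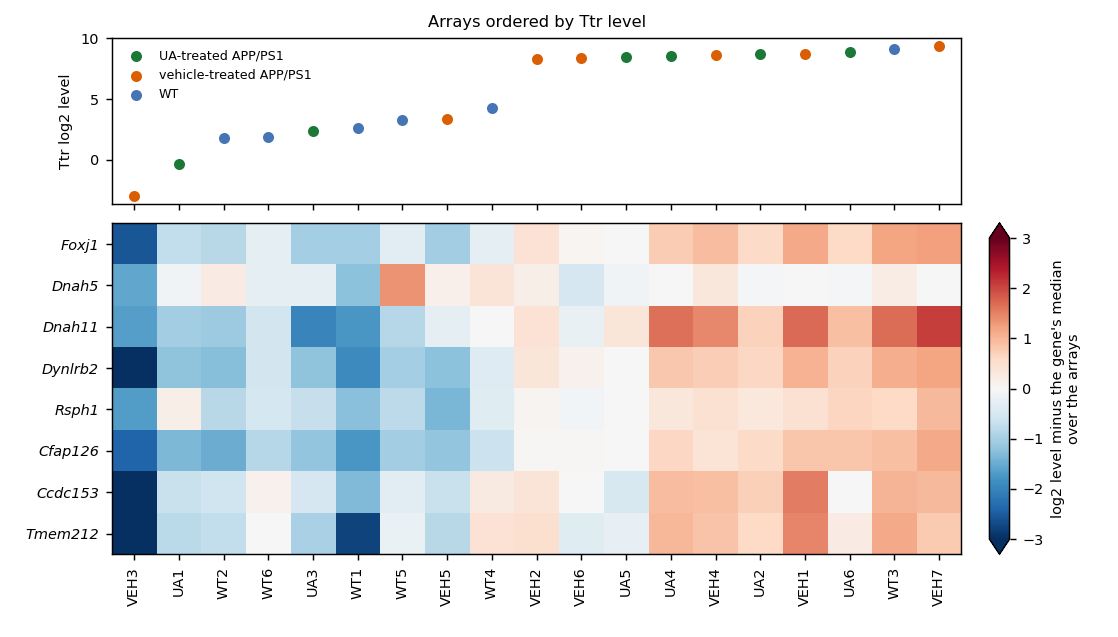
The 19 arrays in order of their Ttr level (x axis), with the Ttr log2 level and its group above and, below, the log2 level of each member minus its median over the arrays (colour, cut at 3 in either direction). In every row except Dnah5 blue is more frequent at low Ttr and red at high Ttr, but the order does not hold array by array. Ccdc153, for example, was at 0.30 in WT6 and at -0.30 in UA5, which had more Ttr. In Dnah5, WT5 is highest at -1.80.

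With Ttr as a covariate the members gave no call between UA and vehicle APP/PS1, vehicle APP/PS1 and WT, or UA APP/PS1 and WT arrays, where 0%, 5.57% and 0.0977% of all genes were called. The median difference was 0.18 between UA and vehicle APP/PS1 arrays (lowest adjusted p 0.478), -0.34 between vehicle APP/PS1 and WT arrays (lowest adjusted p 0.277) and -0.20 between UA APP/PS1 and WT arrays (lowest adjusted p 0.710). The sign of the last 2 medians was therefore opposite to that without the covariate. For Cfap126, the difference between UA and vehicle was 0.12, with an SE of 0.19, against an SE of 0.56 without the covariate.

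**Figure D4:**
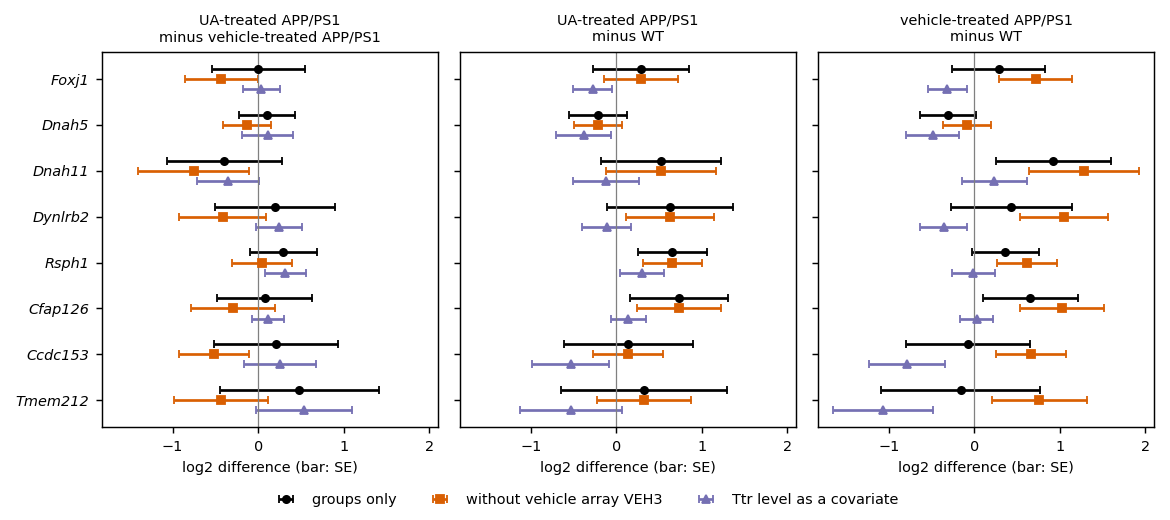
Log2 differences between groups (x axis, with SE) of each member in 3 comparisons, from the groups alone, without VEH3, and with the Ttr level as a covariate. No difference passed the test in any of the 3 fits, and leaving out VEH3 moved the median difference between UA and vehicle to -0.42.

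The members also moved with each other. After group means were removed, the 21 pairs without Dnah5 had r from 0.79 to 0.99 over 19 arrays and the 7 pairs with it from 0.46 to 0.74. The arrays share their total signal and their slides, so these values are a description. Ranked by likeness to the mean of the members among 14890 genes, by r over 19 arrays after group means were removed, the first 10 genes were Hdc (0.99), the histidine decarboxylase gene on the list of ependymal markers, then Tctex1d4, Ccdc146, Dnaaf3, Cfap161, Dnali1, Maats1, Fam216b, Wdr63 and Dnah6 (0.98 to 0.97). Of these, 7 were in the motile cilia lists, as were 13 of the first 50. No gene of the choroid plexus list was in the first 50, and Ttr stood at rank 118 (r = 0.90). That count covers listed genes only, so it does not separate the members from choroid plexus. Calml4, Wdr86, Slc2a12 and Col8a2, all in the first 50, had slopes on Ttr of 0.55, 0.56, 0.50 and 0.49. The median slope of the choroid plexus list was 0.48, and the other genes of the first 50 had lower slopes.

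Other motile cilia genes varied in whether they followed Ttr. Over 5 lists of them, 85 of 101 genes could be tested, with a median slope of 0.068. Of these, 54 had a positive slope past the threshold (63.5%, against 8.9% of all genes). A negative one was called for 5, where 12.2% of all genes had one. Among other axoneme genes 32 of 35 passed upwards and none downwards. Those of smallest p were Cfap70 (slope 0.30), Mlf1 (0.24), Pifo (0.31), a gene of cilium disassembly, and the tektin gene Tekt1 (0.24).

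Of 15 dynein arm genes 9 passed upwards and 2 downwards, where 8.9% of all genes passed upwards and 12.2% downwards. Those upwards included Wdr63, an intermediate chain gene of inner arms (0.42, SE 0.040, limma adjusted p = 2.56e-06), Dnaic2 of the outer arm (0.18), Dnali1 (0.29) and the heavy chain gene Dnah2 (0.26). Of 8 dynein arm assembly genes 2 passed upwards, Dnaaf3 (0.22) and Dnaaf5 (0.046), and the median slope was 0.0044. Of 17 genes of radial spokes, central pair and nexin links 7 passed upwards, among them Drc7 (0.20), Spag16 (0.29) and Spag6l (0.063), and 3 downwards, among them Tcte1 (-0.054). Of 10 regulators 4 passed upwards, Myb (0.20), Gmnc (0.12), Rfx2 (0.069) and Rfx3 (0.049). With lists this short, the downward counts of 2 and 3 lie near the 12.2% of all genes.

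Genes of intraflagellar transport and the primary cilium, which most cells carry, gave 2 positive and 6 negative calls among 38, with a median slope of 0.0017, where 8.9% of all genes had a positive and 12.2% a negative call. Of 14 other ependymal markers 7 passed upwards and 2 downwards, with Calml4 (0.55), Mia (0.24), Hdc (0.28) and Cfap44 (0.23) of smallest p. Cfap44 also counts among the other axoneme genes, and Cd24a both here and among the neuroblast genes. Genes of neighbouring cells also passed upwards: 24 of 24 choroid plexus genes (median slope 0.48), 5 of 14 of meninges and stroma and 7 of 8 oligodendrocyte genes (median 0.10). Among markers of other cells or regions, 1 of 14 vessel, 3 of 9 neuroblast, 3 of 13 hippocampal neuron, 1 of 9 astrocyte, 1 of 9 striatal and 1 of 10 thalamic genes passed upwards, and 0, 0, 1, 1, 3 and 2 downwards. With lists this short, counts of 1 lie near the 8.9% of all genes called upwards. Of 10 microglia genes none passed in either direction. Between vehicle APP/PS1 and WT arrays all 10 lay above 0 and 7 were called higher, where 5.05% of all genes were called.

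The choroid plexus list moved with the members across arrays. All 25 of its genes were measured, 15 were well above background on all 19 arrays, and none was below it on every array. Its mean level without Ttr ran from -2.96 to 1.64 in UA arrays, from -3.79 to 2.20 in vehicle arrays and from -2.85 to 1.65 in WT arrays. With this mean in place of Ttr the same number of members, 7, passed the slope test. How much of the members' signal came from choroid plexus and how much from ependyma was not tested.

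**Figure D5:**
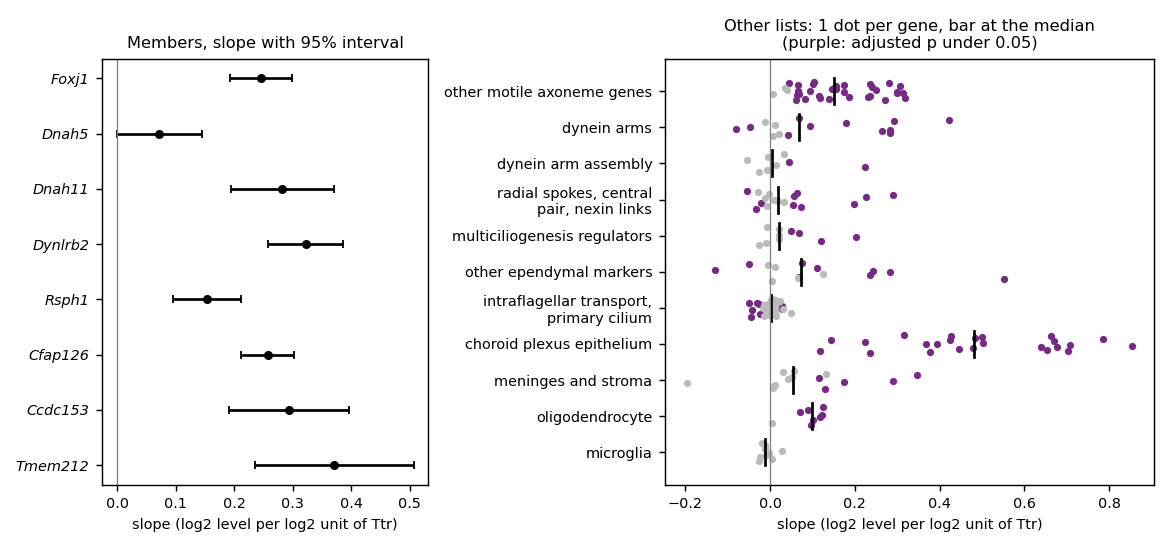
Slope on the Ttr level (x axis, log2 per log2 unit), at left for each member with its 95% interval and at right for each gene of the other lists, with the list's median as a bar and genes past the threshold in purple. The interval of 7 members lies above 0 and that of Dnah5 includes it, and choroid plexus genes have a median slope of 0.48.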

How the data were processed

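Hippocampal RNA from 19 mice was labelled with Cy3 and hybridised to Agilent whole-genome mouse arrays, 1 per mouse. The scanner files hold spot intensity. Per the file headers, feature extraction had subtracted background and normalized the dyes within each array, with no step between arrays. The deposited value table holds a score per spot, which equalled, to within 0.005, each array's log10 processed green intensity after centring and division by its SD, with column medians from -0.28 to -0.17. The labels describe no red sample, and red values were not used.

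Of 62976 spots per array, 3671 control spots and non-uniform spots were left out, and the spots of each of 56605 probes were averaged. Log2 of the processed signal minus the array's 75th percentile was used, and probes well above background on at least 6 arrays were kept (33450). A RefSeq gene table named 32994 probes by their unversioned accessions. The probe of highest mean stood for a gene. Probes without a gene name were grouped by their accession, so 16103 of the 25599 genes tested had a gene symbol. Shares over all genes include the entries without one. The coordinates of the gene table were not used.

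Fits used R 4.3.3 with limma 3.58.1 (lmFit, eBayes), all 19 arrays and Benjamini-Hochberg adjustment over all genes, 2-sided, called at 0.05. Correlations used 2-sided permutation tests with 100000 permutations, or all permutations for under 10 arrays, in Python 3.11.15 with numpy 2.4.6 and scipy 1.17.1. Precision is limited by the number of arrays. The fits were tested on simulated levels with independent noise for each gene. That noise held no slide effect and no link between genes, so the simulation does not test the fits for either.

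Members and gene lists were chosen with earlier results of these data known. The genes named are the members, Ttr, the 10 genes most like the members, and from each list up to 4 called genes, by size for group differences and by p for slopes. Labels do not say whether arrays of equal number belong together. Of 18 such pairs, 8 had residuals correlated above 0.1, and r ran from -0.55 to 0.39. This cannot settle whether the numbers pair samples, because the residuals of many genes also follow the Ttr level. The main fits treated arrays as unpaired. Alternatives covered normalization, background, filter, probe choice, slide, replicate number, sex, choroid plexus level and leaving out each array. Sex was called from Xist and Y-linked genes on these same arrays. By that call 1 of 6 UA, 3 of 7 vehicle and 1 of 6 WT arrays were female, so the groups mixed the sexes unevenly. The normexp alternative used median spot signals, since the files hold no mean signal.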

Additional observations from a re-analysis of the deposited data

Results flagged for a closer look

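In groups of 4 to 10 arrays, 27 sets of levels were searched for a single array far from the rest of its group, and 5 were found. Chance alone flags about 1 in 20 such sets. The sets share arrays and the members move with each other, so the 5 are not independent, and VEH3 and WT3 each recur among them. In vehicle APP/PS1 arrays VEH3 was far below the others for Ccdc153, at -4.41 with the next array at -0.50, and for Tmem212, at -6.49 with the next at -1.29. In WT arrays WT3 was far above the others for Foxj1, at 0.0078 with the next at -1.44, and for Ttr, at 9.14 with the next at 4.24. In UA arrays UA3 was lowest for Dnah5, at -3.44 with the next at -3.24, a small distance within a group of narrow spread.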

How the results depend on the processing

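No member was called in the 3 group comparisons under any of the 32, 32 and 31 alternatives run for UA against vehicle, vehicle against WT and UA against WT, with lowest adjusted p of 0.118, 0.110 and 0.397. The slope on Ttr was called for 7 members under 30 alternatives. In the 10 arrays above and the 9 arrays below the gap in Ttr, an alternative added after the data were seen, it was called for 0 and 0 members, with median slopes of 0.91 and 0.21 and fewer arrays in each fit; 5 and 5 members had a correlation with a permutation p under 0.05. Leaving out each array in turn gave 0 to 0 called members in the group comparisons and 0 to 0 for the difference of slopes, 7 to 7 for the slope, and 7 to 8 for the correlation, the 8 being reached without WT5. The median difference over such fits ran from -0.42 to 0.35 for UA against vehicle, from 0.13 to 0.74 for vehicle against WT and from 0.18 to 0.75 for UA against WT. Uncalled differences changed sign in 33 of 256, 22 of 256 and 17 of 248 values, and no called value did. With normexp background the median difference between UA and vehicle was -0.082, and 1606 genes of all were called there in place of 0, with no member among them; with the choroid plexus list as a covariate 21 were. With the replicate block the numbers of called members were 0, 0, 0 and 7, as without it, and the medians were 0.35, 0.13 and 0.42. Counts over all genes moved more than those over members: between vehicle and WT 1294 genes were called, but 353 without the filter on dim probes, 346 with the replicate block, 77 with slide as a block, 23 within slide 1, 804 from the deposited table and 1986 with sex as a covariate. For UA against WT the count was 23, and 4 with slide as a block and 12 with the replicate block. For the slope it was 5402, and 3207 without that filter, 2784 with the replicate block 2089 without VEH3 and 3461 without WT3. Leaving out single arrays moved the vehicle against WT count between 391, without WT6, and 2266, without WT3. The cause of these changes was not tested. Dnah11, not well above background on 7 arrays, and the 19 arrays limit what could be detected.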
